A study of Mus musculus with 6 samples.

Results

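The genes described here are 30 genes commonly used to recognise astrocytes, followed across RNA sequencing libraries of mouse microglia. They were taken from the deposited gene table by symbol, 30 of 55414 genes; 29 symbols matched exactly, and Aldh1a1 shared its entry with a second symbol and was matched by its gene ID. The libraries came from brains of C57BL/6 mice aged 10 months, 3 labelled Selk-/- (a knockout of Selenok, the gene of selenoprotein K) and 3 labelled wild type (WT). The cells were labelled adult microglia. The sources used here do not give how they were isolated, how the knockout was made or whether the libraries are of different animals. The p-values therefore rest on differences among libraries of a group, and these may be technical. The titles of replicate 3 in each group carry a pair of numbers, and whether those libraries are pools is not given either. Selenok itself had 112, 108 and 108 CPM (read counts scaled to library size) in the libraries labelled Selk-/-, against 112, 125 and 120 CPM in WT. Its log2 fold change was -0.12 (edgeR adjusted p = 0.381), and gene totals do not show whether part of the transcript is missing, so they do not check the genotype.

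Astrocytes are the glial cells that wrap synapses and blood vessels. They clear glutamate with membrane transporters and convert it to glutamine, move water and ions at the endfeet that line vessels, and are joined to each other by gap junctions. Reactive astrocytes make more of the intermediate filament protein GFAP. Some of the genes used to recognise astrocytes are also made by other brain cells, microglia among them. In bulk RNA, fewer cells of a type and less RNA per cell cannot be told apart.

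The cell label was checked first. Microglial markers were abundant: P2ry12, Tmem119 and Cx3cr1 averaged 980.0, 585 and 595 FPKM (a level scaled by gene length and library size) over the 6 libraries. The 15 microglial markers summed to 8805 to 9293 FPKM in the libraries labelled Selk-/-, against 10712 to 11317 FPKM in WT. The 6 defining astrocyte genes (Gfap, Aqp4, Aldh1l1, Slc1a2, Slc1a3, Gja1) summed to 62.3 to 81.1 FPKM in the libraries labelled Selk-/-, against 66.7 to 102 FPKM in WT. Neuronal markers summed to 26.4 to 30.5 FPKM in the libraries labelled Selk-/-, against 26.3 to 29.4 FPKM in WT. Some other lists summed to more. Endothelial markers held 2248 to 3102 FPKM in the libraries labelled Selk-/-, against 1936 to 2398 FPKM in WT. Neutrophil markers held 599, 7378 and 1519 FPKM, against 1120, 715 and 1621 FPKM in WT. Ependymal and choroid plexus markers held 1637 to 2186 FPKM, against 1566 to 2441 FPKM in WT. Oligodendrocyte markers held 827 to 925 FPKM, against 763 to 1036 FPKM in WT. Mural and fibroblast markers held 642 to 825 FPKM, against 640 to 675 FPKM in WT. Border macrophage markers held 259 to 389 FPKM, against 425 to 597 FPKM in WT. Oligodendrocyte precursor markers held 8.09 to 10.4 FPKM over the 6 libraries. The 6 defining astrocyte genes were thus detected in every library, at a small part of the sum of the 15 microglial markers. The lists hold 6 to 20 genes, so their sums are not levels per gene. All 30 astrocyte genes summed to 936 to 1070 FPKM in the libraries labelled Selk-/-, against 998 to 1075 FPKM in WT. Without Glul, which microglia also make, they summed to 269 to 296 FPKM, against 248 to 385 FPKM in WT. Total counts were 21112082 to 27541487 in the libraries labelled Selk-/-, against 26694358 to 28123871 in WT, and 3 counts in a library equal 0.107 to 0.142 CPM before scaling. Small nucleolar RNA genes held 46.0 and 54.9 unscaled CPM in replicates 2 and 3 labelled Selk-/-, against 318 to 327 unscaled CPM in the other 4 libraries.

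No astrocyte gene passed the edgeR test between the groups, and most overlapped between them. Of the 30 genes, 29 had counts and passed the filter on low counts, and 0 passed an adjusted p of 0.05 in edgeR, as did 0.0% of all 17739 genes tested. Of the 29, 10 were above WT and 19 below it (65.5%, against 51.3% of all genes tested), with a median log2 fold change of -0.19, against -0.0082 over all genes tested. An unadjusted p under 0.05 was reached by 5 genes (17.2%), 1 above WT (Ntm) and 4 below it (Gpr37l1, Htra1, Aqp4 and Ntsr2), where 19.1% of all genes tested reached it, 9.34% above and 9.74% below WT. The groups did not overlap for 3 genes (10.3%; Gpr37l1, Htra1 and Ntsr2), each lower in the libraries labelled Selk-/-, where 26.1% of all genes tested did not overlap and 13.9% did so with lower values. DESeq2 gave an adjusted p to 21 of the 29 and called 1, Gpr37l1 (lower), where it called 10.2% of all genes it adjusted, 5.96% as higher and 4.26% as lower. The shares of genes called or without overlap were near or under those of all genes. The median rested on WT replicate 1: without that library it was -0.0001, and without the library of each group titled with a pair of numbers it was -0.445.

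**Figure D1:**
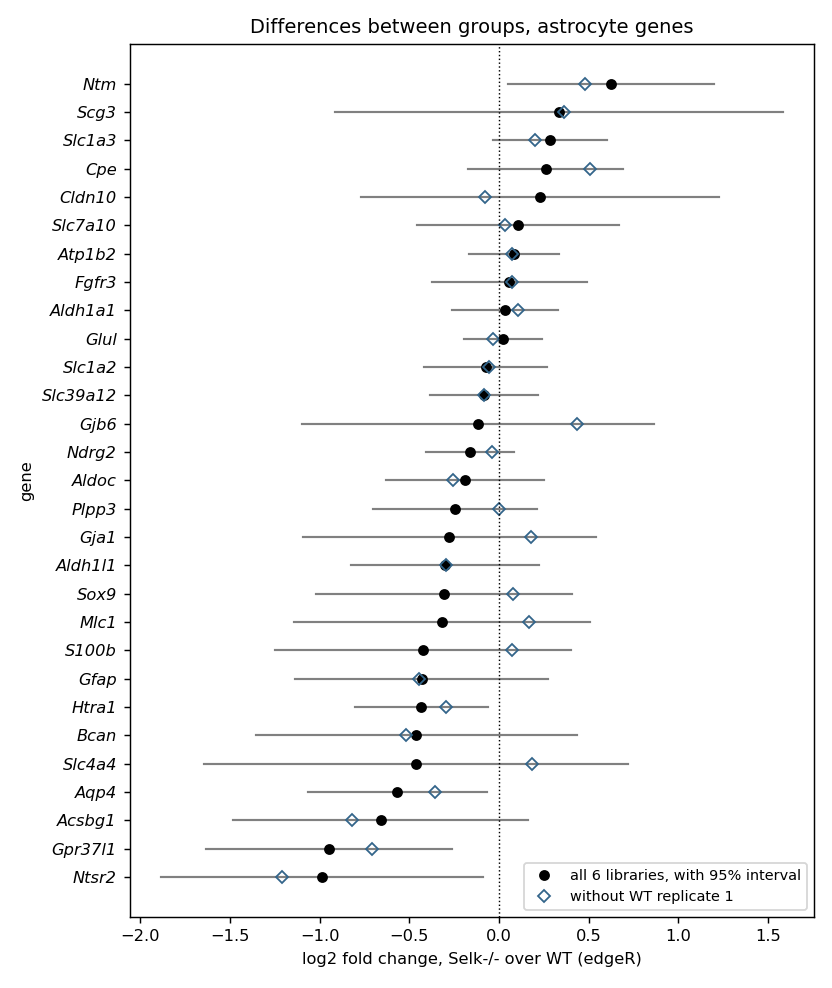
Log2 fold changes (libraries labelled Selk-/- over WT, edgeR) of the 29 astrocyte genes tested, with 95% intervals from all 6 libraries (filled points) and the value without WT replicate 1 (open diamonds). Gja1, Gjb6, Mlc1, S100b, Sox9 and Slc4a4 lie below 0 with all libraries and above 0 without WT replicate 1.

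Among the genes of glutamate handling was the most abundant of all per length. This was Glul, glutamine synthetase, which turns glutamate into glutamine in astrocytes and is also made by microglia and other macrophages. It had 776, 667 and 774 FPKM in the libraries labelled Selk-/-, against 691, 724 and 796 FPKM in WT. The groups overlapped throughout, and Glul alone made up 64.8% to 76.3% of the summed CPM of the 30 genes in a library. Its log2 fold change was 0.02 (95% interval -0.20 to 0.24; edgeR adjusted p = 0.920). Slc1a3, the glutamate transporter GLAST, which activated microglia can also make, had 155, 117 and 155 CPM in the libraries labelled Selk-/-, against 104, 134 and 114 CPM in WT. Replicates 1 and 3 labelled Selk-/- were above every WT library and replicate 2 was within the WT range. The log2 fold change was 0.28 (SE 0.137; edgeR adjusted p = 0.308). DESeq2 called Slc1a3 when replicate 2 labelled Selk-/- was left out. Slc1a2, the main glutamate transporter of forebrain astrocytes (GLT-1), had 35.1, 28.8 and 26.7 CPM in the libraries labelled Selk-/-, against 32.8, 36.7 and 26.2 CPM in WT. Its log2 fold change was -0.08 (95% interval -0.42 to 0.27; edgeR adjusted p = 0.814). Per length Slc1a2 averaged 2.42 FPKM over the 6 libraries and Slc1a3 27.3 FPKM. Slc7a10, a transporter of small neutral amino acids, ranged from 6.52 to 8.82 CPM in the libraries labelled Selk-/-, against 5.35 to 10.01 CPM in WT. It overlaps Lrp3 on the opposite strand, whose mean CPM was 63.9% of its own, so its count is uncertain.

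The genes of gap junctions showed how far 1 library can stand from the rest. Gja1, which encodes connexin 43, the main gap junction protein of astrocytes, had 129, 105 and 134 CPM in the libraries labelled Selk-/-, against 229, 98.7 and 118 CPM in WT. Gjb6, which encodes connexin 30, had 36.8, 38.0 and 51.9 CPM in the libraries labelled Selk-/-, against 74.9, 31.8 and 30.7 CPM in WT. In both, WT replicate 1 was the highest of the 6, 1.71 and 1.44 times the next highest, while the other WT libraries lay below the libraries labelled Selk-/- or, for Gja1 in WT replicate 3, among them. The log2 fold changes were -0.28 (SE 0.330; edgeR adjusted p = 0.681) for Gja1 and -0.12 (SE 0.394; edgeR adjusted p = 0.899) for Gjb6. Without WT replicate 1 they were 0.18 and 0.43. Cldn10, a claudin found in astrocytes, did not follow them: it was lowest in WT replicate 1 (0.780 CPM), with 0.952 to 2.23 CPM in the libraries labelled Selk-/- and 1.81 and 1.85 CPM in the other WT libraries, on 22 to 53 counts.

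The promoters of Gja1 and Gjb6 are shown because these genes were both highest in WT replicate 1, beside those of Gfap and Ntsr2, which were highest in WT replicate 2. Each is the 250 bases before the start of the gene, 5′ to 3′ along the gene, from RefSeq on GRCm38.p6, and capitals mark matches to the motifs searched.
Gja1 (chr10:56377050-56377299, plus strand): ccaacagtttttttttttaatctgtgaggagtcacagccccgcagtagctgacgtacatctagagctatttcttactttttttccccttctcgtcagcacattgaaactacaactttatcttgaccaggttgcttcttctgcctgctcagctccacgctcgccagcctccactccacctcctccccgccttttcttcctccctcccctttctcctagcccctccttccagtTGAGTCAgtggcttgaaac
Gjb6 (chr14:57133612-57133861, minus strand): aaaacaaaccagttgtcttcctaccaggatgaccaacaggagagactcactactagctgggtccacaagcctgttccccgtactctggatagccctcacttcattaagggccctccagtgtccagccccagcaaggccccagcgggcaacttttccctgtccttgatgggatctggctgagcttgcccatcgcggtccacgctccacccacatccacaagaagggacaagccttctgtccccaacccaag
Gfap (chr11:102897201-102897450, minus strand): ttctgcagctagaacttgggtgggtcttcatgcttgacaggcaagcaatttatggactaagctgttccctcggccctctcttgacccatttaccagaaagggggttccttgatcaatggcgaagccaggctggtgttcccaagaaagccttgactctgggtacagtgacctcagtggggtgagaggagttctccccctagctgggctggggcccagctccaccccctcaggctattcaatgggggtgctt
Ntsr2 (chr12:16653220-16653469, plus strand): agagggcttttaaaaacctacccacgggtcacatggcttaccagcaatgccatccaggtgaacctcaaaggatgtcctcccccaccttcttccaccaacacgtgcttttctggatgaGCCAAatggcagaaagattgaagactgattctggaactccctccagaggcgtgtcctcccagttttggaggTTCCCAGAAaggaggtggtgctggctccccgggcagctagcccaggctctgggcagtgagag
On both strands, 4 motifs were searched: TGANTCA (bound by AP-1 factors), AACAAT (bound by SOX factors), TTGGC (the core bound by nuclear factor I) and TTCNNNGAA (bound by STAT factors). Gja1 held the AP-1 letters at bases -19 to -13 from its start, Ntsr2 held the nuclear factor I core at -133 to -129 and the STAT letters at -62 to -54, and no match was found in these windows of Gjb6 and Gfap. Promoters were found for 26 of the 30 genes, 34 promoters in all; those of Aqp4, Atp1b2, Cpe and Sox9 were not matched. Of the 34, 5.88% held the AP-1 letters, 2.94% the SOX letters, 47.1% the nuclear factor I core and 11.8% the STAT letters, against 6.75%, 9.42%, 41.5% and 7.02% of all 32851 promoters. A match describes letters in a window and not binding.

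Of the 5 genes of the cytoskeleton, endfeet and membrane, 4 were below WT and 1 was above it. Gfap had 11.5, 11.1 and 18.4 CPM in the libraries labelled Selk-/-, against 18.0, 24.6 and 12.7 CPM in WT. The groups overlapped, since replicate 3 labelled Selk-/- exceeded 2 WT libraries, and the log2 fold change was -0.43 (SE 0.293; edgeR adjusted p = 0.466). Aqp4, the water channel of astrocyte endfeet, had 9.66, 14.0 and 12.1 CPM in the libraries labelled Selk-/-, against 22.5, 17.0 and 13.6 CPM in WT. Replicate 2 labelled Selk-/- lay just above WT replicate 3, and the log2 fold change was -0.57 (SE 0.212; edgeR adjusted p = 0.219; DESeq2 adjusted p = 0.0906). DESeq2 called Aqp4 when WT replicate 3 was left out. Gpr37l1, an orphan receptor of astrocytes that oligodendrocyte precursors also carry, had 8.09, 8.79 and 6.64 CPM in the libraries labelled Selk-/-, against 19.9, 16.7 and 8.98 CPM in WT. All 3 WT libraries were above all libraries labelled Selk-/-, WT replicate 3 by a small margin. The log2 fold change was -0.95 (SE 0.289; edgeR adjusted p = 0.165). DESeq2 called the gene, with an adjusted p of 0.0154. The DESeq2 call was lost when WT replicate 1, WT replicate 2, or replicate 1 or 3 labelled Selk-/- was left out (adjusted p = 0.239, 0.115, 0.0742 and 0.123; log2 fold change -0.70, -0.87, -0.96 and -0.83, against -0.94 with all 6 libraries). It was kept without replicate 2 labelled Selk-/- or WT replicate 3 (adjusted p = 0.0414 and 1.57e-06; log2 fold change -1.04 and -1.21). Mlc1, a membrane protein of endfeet, had 16.3, 18.9 and 20.5 CPM in the libraries labelled Selk-/-, against 36.4, 15.3 and 17.8 CPM in WT, so WT replicate 1 again stood alone. Atp1b2, the sodium pump subunit also known as AMOG, averaged 68.8 ± 9.51 CPM in the libraries labelled Selk-/- and 65.2 ± 4.96 CPM in WT (SD, n = 3 each). The difference was 0.08 on the log2 scale, with a 95% interval of -0.17 to 0.33.

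**Figure D2:**
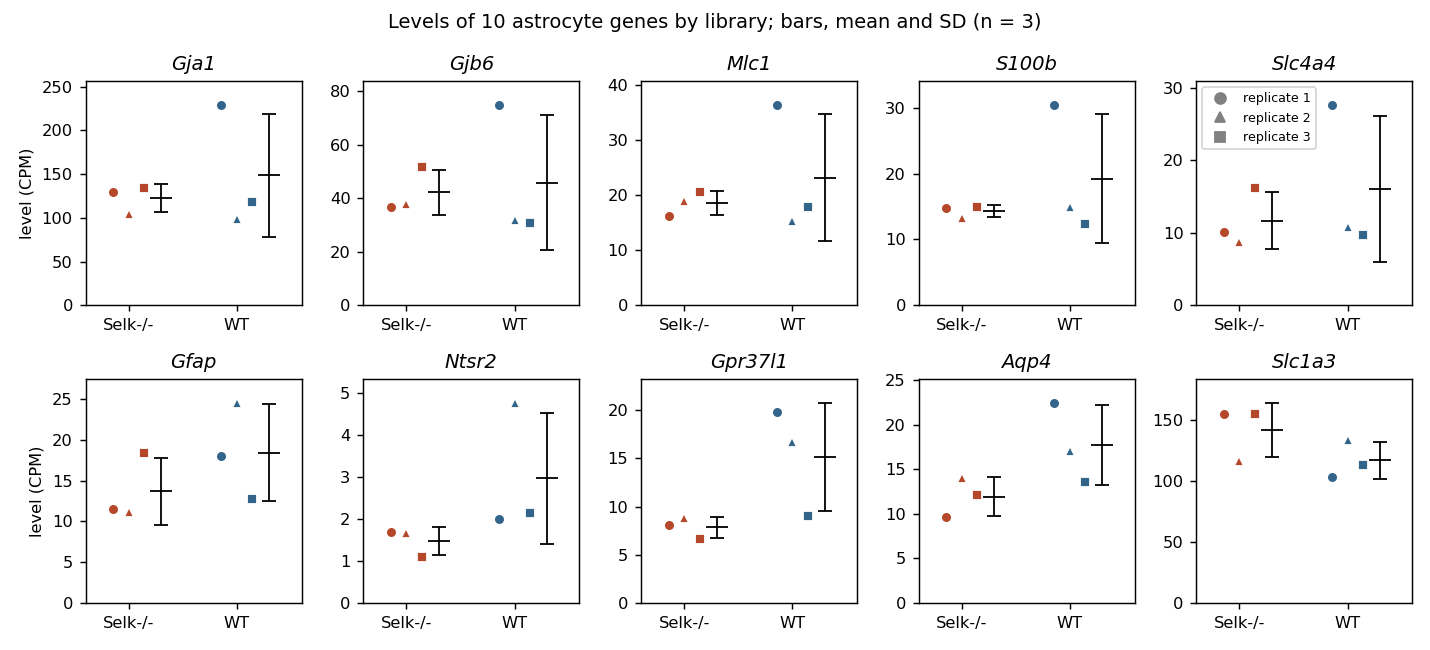
Levels of 10 astrocyte genes in CPM (vertical axes start at 0), with each library as a point (circle, triangle and square for replicates 1, 2 and 3), libraries labelled Selk-/- left of WT, and bars for the mean and SD of 3 libraries. WT replicate 1 is the highest point for Gja1, Gjb6, Mlc1, S100b, Slc4a4, Gpr37l1 and Aqp4, and WT replicate 2 for Gfap and Ntsr2.

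Metabolic genes overlapped between the groups. Ndrg2, a stress-responsive protein abundant in astrocytes, had 59.6, 54.5 and 59.1 CPM in the libraries labelled Selk-/-, against 75.3, 60.6 and 58.1 CPM in WT. WT replicate 1 was the highest, and WT replicate 3 lay among the libraries labelled Selk-/-. The log2 fold change was -0.16 (edgeR adjusted p = 0.442). Aldh1l1, the folate enzyme used as a marker of astrocytes throughout the brain, had 4.69, 3.39 and 6.21 CPM in the libraries labelled Selk-/-, against 5.92, 6.35 and 5.31 CPM in WT. The groups overlapped, and the log2 fold change was -0.30 (SE 0.226; edgeR adjusted p = 0.502). Acsbg1, an acyl-CoA synthetase, was highest in WT replicate 2 at 6.69 CPM, against 2.20 to 3.55 CPM in the other 5 libraries. Plpp3, a lipid phosphatase that endothelial cells also make, was highest in WT replicate 1 at 80.5 CPM, against 46.2 to 56.8 CPM in the other 5. Aldoc, the brain form of aldolase, and Aldh1a1, a retinaldehyde dehydrogenase that other brain cells also make, had log2 fold changes of -0.19 and 0.03, with edgeR adjusted p of 0.610 and 0.904.

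Among the transport and metal-binding genes, Slc4a4, a sodium bicarbonate cotransporter, and S100b, a calcium-binding protein that oligodendrocytes also make, again set WT replicate 1 apart. Slc4a4 had 10.1, 8.72 and 16.1 CPM in the libraries labelled Selk-/-, against 27.6, 10.8 and 9.66 CPM in WT. S100b had 14.8, 13.3 and 14.9 CPM in the libraries labelled Selk-/-, against 30.4, 15.0 and 12.3 CPM in WT. In both, the other WT libraries overlapped those labelled Selk-/-. S100b overlaps Dip2a on the opposite strand, whose mean CPM was 193% of its own, so its count is uncertain. Slc39a12, a zinc transporter, stayed between 20.5 and 28.3 CPM in all 6 libraries. Mt4, a metallothionein known from stratified epithelia rather than from astrocytes, had 0 counts in all 6 libraries, which allows up to 0.107 to 0.142 CPM by counting error.

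Of the receptors and the transcription factor of the list, Fgfr3 averaged 5.62 FPKM over the 6 libraries, Sox9 3.13 FPKM and Ntsr2 0.889 FPKM, against a median of 4.91 FPKM over all genes tested. Ntsr2, a neurotensin receptor enriched in astrocytes, had 1.68, 1.66 and 1.09 CPM in the libraries labelled Selk-/-, against 1.98, 4.76 and 2.14 CPM in WT. The groups did not overlap, but WT replicates 1 and 3 were close to the libraries labelled Selk-/-, and WT replicate 2 was 2.23 times the next highest library. The log2 fold change was -0.99 (SE 0.386; edgeR adjusted p = 0.228), on 23 to 126 counts, and -0.46 without WT replicate 2. DESeq2 gave Ntsr2 no adjusted p. Sox9, a transcription factor of the astrocyte lineage, had 11.1 to 16.3 CPM in the libraries labelled Selk-/-, against 24.6, 13.9 and 11.8 CPM in WT. Fgfr3, a fibroblast growth factor receptor, ranged from 21.4 to 31.3 CPM in the libraries labelled Selk-/-, against 20.5 to 30.6 CPM in WT.

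Among secreted and surface proteins the differences ran both ways. Htra1, a secreted serine protease that microglia and vascular cells also make, had 34.6, 27.9 and 39.8 CPM in the libraries labelled Selk-/-, against 54.7, 43.1 and 40.4 CPM in WT. The groups did not overlap, with replicate 3 labelled Selk-/- just under WT replicate 3, and the log2 fold change was -0.43 (SE 0.158; edgeR adjusted p = 0.210; DESeq2 adjusted p = 0.0784). Htra1 overlaps Fgfr2 on the opposite strand, whose mean CPM was 31.3% of its own. Of the 30 genes, Htra1, Glul and Slc1a3 are known from microglia as well, and microglial markers summed to less in every library labelled Selk-/- than in WT; their part in the Htra1 value was not tested. Ntm, the cell adhesion molecule neurotrimin, better known from neurons, had 3.26, 2.58 and 3.89 CPM in the libraries labelled Selk-/-, against 1.67, 2.04 and 2.602 CPM in WT. Replicate 2 labelled Selk-/- lay inside the WT range and replicates 1 and 3 above it, and the log2 fold change was 0.62 (SE 0.248; edgeR adjusted p = 0.232), on 47 to 89 counts. DESeq2 gave Ntm no adjusted p. Cpe, carboxypeptidase E, which processes peptide hormones in neurons and endocrine cells, had 141, 157 and 145 CPM in the libraries labelled Selk-/-, against 163, 102 and 106 CPM in WT. WT replicate 1 was the highest of all and the other WT libraries were the lowest, and the log2 fold change was 0.26 (edgeR adjusted p = 0.474), or 0.51 without WT replicate 1, where DESeq2 called it. Bcan, the matrix protein brevican, was highest in WT replicate 2 at 9.97 CPM, against 3.17 to 5.81 CPM in the other 5 libraries. Scg3, a granin of secretory granules also made by neurons, was highest in replicate 2 labelled Selk-/- at 14.6 CPM, against 3.84 to 6.38 CPM in the other 5.

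Laid out by library, the genes fell into more than 1 pattern. The highest value was in replicates 1, 2 and 3 labelled Selk-/- for 3, 1 and 3 of the 29 genes (16.3%, 20.5% and 11.9% of all genes tested), and in WT replicates 1, 2 and 3 for 12, 9 and 1 (22.1%, 16.3% and 12.8%). A gene was set apart in a library when its highest value was at least 1.5 times its median over the 6 libraries, a limit chosen after the values were seen. In WT replicate 1 this held for 9 of the 29 genes tested (Aqp4, Gja1, Gjb6, S100b, Sox9, Mlc1, Slc4a4, Gpr37l1 and Plpp3), 31.0%, against 6.64% of all genes tested. In WT replicate 2 it held for 4 (Gfap, Ntsr2, Acsbg1 and Bcan), 13.8%, against 1.51%. It held for Scg3 in replicate 2 labelled Selk-/-, and for 15 genes in no library, Slc1a2, Slc1a3, Glul and Aldh1l1 among them. A gene set apart was not always high in that library alone. In WT replicate 1, Gpr37l1 and Aqp4 were 1.19 and 1.32 times the next library, WT replicate 2. The rest of the 9 were 1.42 to 2.03 times the next library. Gfap in WT replicate 2 was 1.335 times the next library, replicate 3 labelled Selk-/-. Among 44 tested genes of a further astrocyte list the same limit was met by 13 in WT replicate 1 and 5 in WT replicate 2. Genes set apart in WT replicate 1 thus include connexins and endfoot proteins, and those in WT replicate 2 include the filament gene. Oligodendrocyte markers, as a whole list, summed to 2641 and 3408 CPM in WT replicates 1 and 2, against 2435 to 3049 CPM in the other 4 libraries. Of these 16 markers, 11 had their highest value in WT replicate 2, and of the 14 tested 11 were below WT. Border macrophage markers summed to 2009 and 2459 CPM in WT replicates 1 and 2, against 1403 to 1986 CPM in the other 4, and 12 of the 15 had their highest value in WT replicate 2. Neuronal markers summed to 111 and 95.4 CPM in WT replicates 1 and 2, against 98.2 to 115 CPM in the other 4, and ependymal and choroid plexus markers to 2609 and 3557 CPM, against 2242 to 3170 CPM. Endothelial markers summed to 5165 and 6750 CPM in WT replicates 1 and 2, against 6237 to 8780 CPM in the other 4. Of these 16 markers, 12 had their lowest value in WT replicate 1. Mural and fibroblast markers summed to 1972 and 2054 CPM in WT replicates 1 and 2, against 2069 to 2703 CPM. The part of these marker lists in the patterns was not tested.

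**Figure D3:**
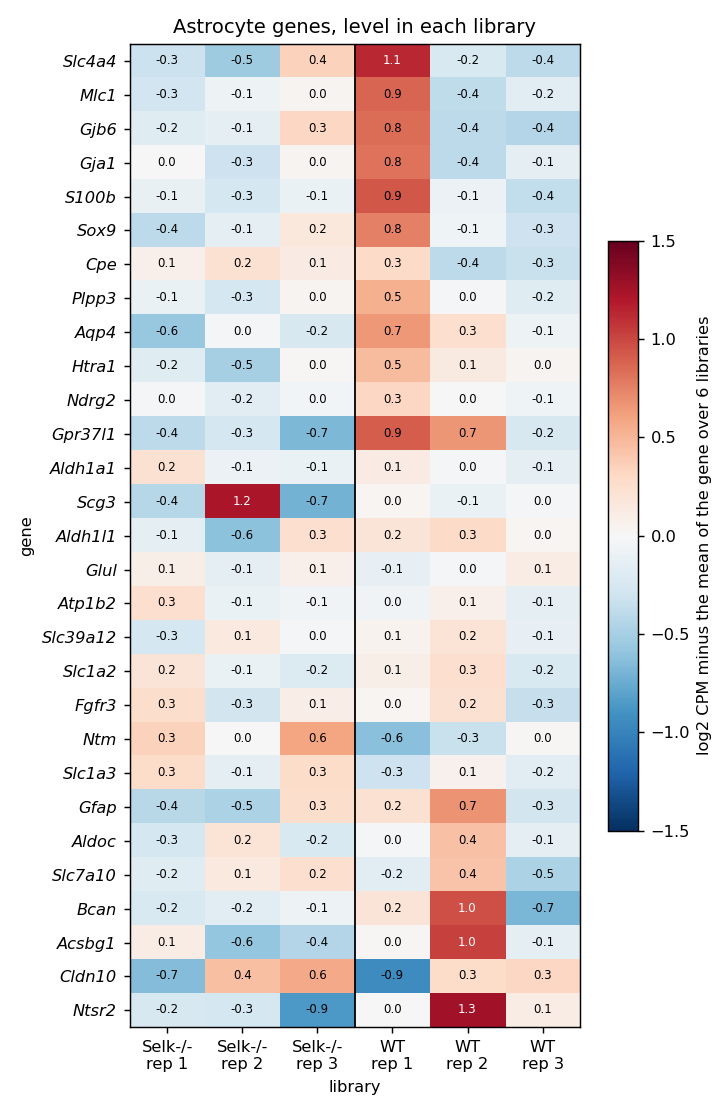
Level of each of the 29 astrocyte genes in each library as log2 CPM minus the mean of that gene over the 6 libraries (red, above; blue, below), with libraries labelled Selk-/- left of the line and WT right of it, and genes ordered by WT replicate 1 minus WT replicate 2. The genes at the top, from Slc4a4 to Sox9, have their highest value in WT replicate 1. Of those at the bottom, Ntsr2 and Acsbg1 have theirs in WT replicate 2, and Cldn10 has its highest in replicate 3 labelled Selk-/-.

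Summed over the genes, the libraries overlapped. The 30 genes together held 3291 ± 245 CPM in the libraries labelled Selk-/- and 3307 ± 63.4 CPM in WT (SD, n = 3 each). Without Glul they held 908 ± 53.5 CPM in the libraries labelled Selk-/- and 955 ± 199.7 CPM in WT. Left out next were 5 of the genes that other cells also make (Glul, Htra1, Aldoc, Cpe and Slc1a3). Some of the 25 that remain, such as S100b, Plpp3 and Scg3, are also made by other cells. The 25 summed to 571, 523 and 596 CPM in the libraries labelled Selk-/-, against 836, 585 and 515 CPM in WT. WT replicate 1 was again the highest, and the other WT libraries were within or near the range of those labelled Selk-/-. Microglial markers in the same libraries did not overlap, at 24575 to 25970 CPM in the libraries labelled Selk-/-, against 30416 to 30762 CPM in WT, and their part in the values given here was not tested. Outside the astrocyte lists, 15126 genes were ranked by how closely their log2 CPM followed the mean of the 6 defining genes. The top 5 were Mzf1, Bbs1, Nfkbil1, Gm6483 and Ormdl3, with Pearson correlations of 0.985 to 0.987 over 6 libraries. This is a description that shares depth and scaling between genes. Ranking so many genes over 6 libraries gives some high correlations without any link, and Gm6483 ranged only from 2.16 to 2.34 CPM.

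**Figure D4:**
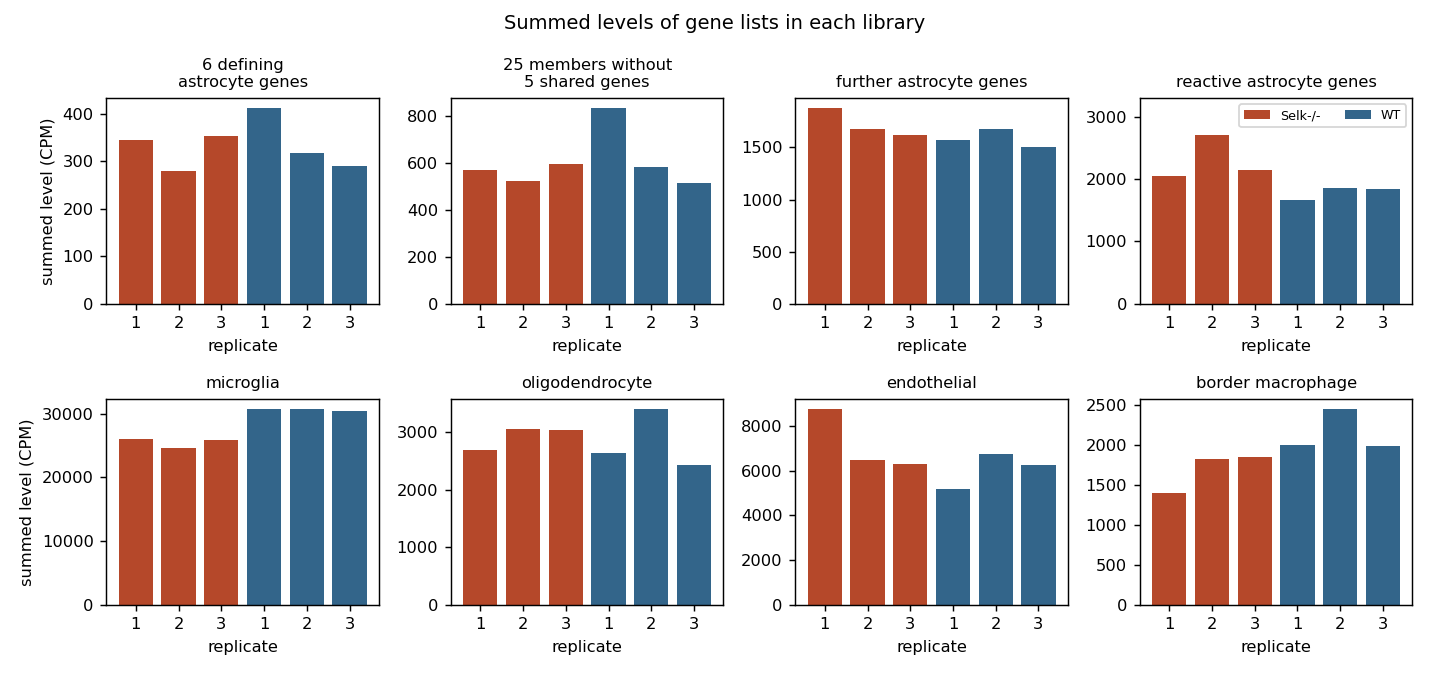
Summed CPM of 8 gene lists in each library, with libraries labelled Selk-/- (red) left of WT (blue) and axes starting at 0. The 6 defining astrocyte genes are highest in WT replicate 1, and so are the 25 genes left without Glul, Htra1, Aldoc, Cpe and Slc1a3. The reactive list is higher in every library labelled Selk-/- than in WT, and microglial and border macrophage markers are lower in every library labelled Selk-/-.

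A further 45 astrocyte genes were counted in the same way. Of 44 tested, 12 were above WT and 32 below it, where 51.3% of all genes tested were below. Their median log2 fold change was -0.32, against -0.0082 over all genes tested, and edgeR passed 0. An unadjusted p under 0.05 was reached by 8 (18.2%), 2 above and 6 below WT, where 19.1% of all genes tested reached it (9.34% above, 9.74% below). The groups did not overlap for 10 (22.7%), 2 higher and 8 lower, where 26.1% of all genes tested did not overlap (12.2% higher, 13.9% lower). These shares were near or under those of all genes. DESeq2 gave an adjusted p to 19 of the 44 and called 1, as higher. It called 5.96% of all genes it adjusted as higher and 4.26% as lower. Slc14a1, a urea transporter, had 3.11, 4.01 and 3.79 CPM in the libraries labelled Selk-/-, against 7.62, 7.52 and 6.38 CPM in WT (log2 fold change -0.98, edgeR adjusted p = 0.105). Etnppl, a phospholyase of astrocytes, had 1.17, 1.31 and 1.18 CPM in the libraries labelled Selk-/-, against 3.05, 2.72 and 1.89 CPM in WT (log2 fold change -1.05, edgeR adjusted p = 0.111). Itih3, an inhibitor heavy chain, had 1.10, 1.43 and 0.995 CPM in the libraries labelled Selk-/-, against 1.98, 2.38 and 2.49 CPM in WT (log2 fold change -0.95, edgeR adjusted p = 0.1203). All 3 were lower in the libraries labelled Selk-/- with no overlap, and DESeq2 gave none of them an adjusted p (unadjusted p = 1.39e-05, 0.00425 and 0.00978). Nfib, a nuclear factor I gene that many cells express, had 81.1, 67.1 and 64.5 CPM in the libraries labelled Selk-/-, against 55.9, 53.2 and 51.4 CPM in WT. It was higher with no overlap and was the gene DESeq2 called (log2 fold change 0.41, DESeq2 adjusted p = 0.00788; edgeR adjusted p = 0.112). The most abundant per length overlapped between groups. Sparcl1, a secreted matrix protein that endothelial cells also make, had 985, 814 and 689 CPM in the libraries labelled Selk-/-, against 604, 713 and 723 CPM in WT. Clu, the secreted chaperone clusterin, had 200.3, 198 and 262 CPM in the libraries labelled Selk-/-, against 243, 262 and 213 CPM in WT. Fam107a, which binds actin, had 212, 129 and 157 CPM in the libraries labelled Selk-/-, against 53.0, 141 and 84.5 CPM in WT. Their log2 fold changes were 0.29, -0.12 and 0.84, with edgeR adjusted p of 0.305, 0.651 and 0.309.

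Of 23 genes of reactive astrocytes, more were above WT than below it. Gfap, which is not in this list, was below WT (log2 fold change -0.43, edgeR adjusted p = 0.466). The highest value was in replicates 1, 2 and 3 labelled Selk-/- for 4, 12 and 4 of the 23 (16.3%, 20.5% and 11.9% of all genes tested). It was in WT replicates 1, 2 and 3 for 2, 1 and 0. Of 22 tested, 17 were above WT and 5 below it, where 51.3% of all genes tested were below. Their median log2 fold change was 0.31, against -0.0082 over all genes tested, and edgeR passed 0. An unadjusted p under 0.05 was reached by 10 (45.5%), 8 above and 2 below WT, where 9.34% of all genes tested reached it above and 9.74% below WT. The groups did not overlap for 9 higher genes and 1 lower gene, where 12.2% of all genes tested were higher and 13.9% lower without overlap. DESeq2 gave an adjusted p to 17 of the 22 and called 4 higher (Osmr, Srgn, Nes and Hspb1) and 1 lower (Fbln5, an extracellular matrix protein, named after its value was seen), where it called 5.96% of all genes it adjusted as higher and 4.26% as lower. Osmr, the receptor subunit for oncostatin M, had 81.4, 100.2 and 73.4 CPM in the libraries labelled Selk-/-, against 27.9, 46.4 and 38.6 CPM in WT (log2 fold change 1.18, edgeR adjusted p = 0.105, DESeq2 adjusted p = 2.71e-07). Serpina3n, a protease inhibitor of reactive astrocytes, had 3.99, 17.0 and 11.4 CPM in the libraries labelled Selk-/-, against 0.922, 3.06 and 1.32 CPM in WT. Its log2 fold change was 2.62 (edgeR adjusted p = 0.142), and DESeq2 gave it an unadjusted p of 3.48e-07 and no adjusted p. With the small nucleolar RNA level as a block, which sets replicate 1 labelled Selk-/- against WT, the log2 fold change of Serpina3n was 1.18. That of Osmr was 1.11 in the same fit. In both genes the groups did not overlap, and replicate 2 labelled Selk-/- was the highest. Nes, the filament protein nestin, had 180.1, 170.4 and 132 CPM in the libraries labelled Selk-/-, against 104, 129 and 119.5 CPM in WT (log2 fold change 0.45, edgeR adjusted p = 0.152). Hspb1, a small heat shock protein, had 168, 217 and 212 CPM in the libraries labelled Selk-/-, against 79.4, 153 and 119.7 CPM in WT (log2 fold change 0.76, edgeR adjusted p = 0.180). Srgn, a proteoglycan core of myeloid cells, had 405, 472 and 423 CPM in the libraries labelled Selk-/-, against 274, 353 and 350.3 CPM in WT (log2 fold change 0.42, edgeR adjusted p = 0.140). In these 3 genes, too, every library labelled Selk-/- was above every WT library. Vim, the filament protein vimentin, overlapped between groups and had 465, 453 and 426 CPM in the libraries labelled Selk-/-, against 462, 429 and 422 CPM in WT (log2 fold change 0.04, edgeR adjusted p = 0.813). Many genes of this list are made by vascular or myeloid cells as well. Endothelial markers summed to 6316 to 8780 CPM in the libraries labelled Selk-/-, against 5165 to 6750 CPM in WT. Mural and fibroblast markers summed to 2069 to 2703 CPM in the libraries labelled Selk-/-, against 1972 to 2170 CPM in WT. Neutrophil markers summed to 664 to 6180 CPM in the libraries labelled Selk-/-, highest in replicate 2, against 744 to 1488 CPM in WT, and their part in these values was not tested.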

How the data were processed

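RNA of adult microglia was sequenced in 6 libraries. Alignment by the authors was with Hisat2 2.0.5 and quantification with stringtie 2.2.0, per the labels' protocols. The submitters' processing notes name another aligner, Bowtie 0.12.2, and builds mm8 and mm9. The table names no build, so none of its positions is printed. The authors deposited raw counts and FPKM per gene. The treatment of strand and of multi-mapped reads is not stated. Replicate numbers are names in accession order.

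The counts went into edgeR 4.0.16 under R 4.3.3 (TMM, filterByExpr, robust quasi-likelihood fits, no covariate), two-sided, with Benjamini-Hochberg adjustment over 17739 genes. CPM use TMM-scaled totals unless called unscaled. Standard errors derive from the quasi-likelihood F statistic. DESeq2 1.42.0, limma 3.58.1, other scalings and filters, FPKM fits, a snoRNA block and left-out libraries were alternatives. Chi-square per degree of freedom between libraries of 1 group was 13.3 to 43.5, so no pair was a duplicate. On simulated data for the comparison of libraries labelled Selk-/- with WT, over 17553 genes, edgeR recovered 11.9% of 1.5-fold, 74.6% of 2-fold and 100% of 4-fold changes. The simulation gave every gene the same dispersion and changed only genes with a mean above 1 CPM. It checks the fitting steps and does not say what size of change could be found in the real libraries. Floors cover counting error only.

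The genes and lists were chosen with earlier results of these data known. The rule gave values in every library for 6 defining genes, the 6 with the smallest p and the 6 most abundant per length, and, from the further and reactive lists, the 4 with the smallest p and the 3 most abundant of each. Values of Mlc1, S100b, Slc4a4, Acsbg1, Plpp3, Sox9, Bcan, Scg3 and Cldn10 by library were chosen after they were seen.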

Additional observations from a re-analysis of the deposited data

How the results depend on the processing

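In edgeR and limma, no gene of the 29 passed an adjusted p of 0.05 under any other scaling, filter or left-out library that tested it. The minimum of 10 CPM in 3 libraries kept only 20 of the 29, without Gpr37l1, Ntsr2 and Ntm. The limma fits on genes with a mean of at least 1 FPKM kept 27. With all 6 libraries, DESeq2 called 1. The number of all genes past adjusted p 0.05 was 1074 with DESeq2, 92 with a minimum of 10 CPM in 3 libraries (a smaller set of tests), 1 with limma-voom, and between 0 and 59 on leaving out a library, with 59 without replicate 1 labelled Selk-/-. The median log2 fold change of the astrocyte genes ranged from -0.33 to -0.0001 on leaving out a library, and was -0.445 without the libraries titled with a pair of numbers. The log2 ratio of their summed CPM was -0.0072, and -0.20 without Glul, Htra1, Aldoc, Cpe and Slc1a3, a choice that left other shared genes in.

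Signs of uncalled genes turned as follows. With the snoRNA level as a block they were 0.14 for Slc1a2, -0.63 for Cldn10, -0.17 for Slc7a10 and -0.40 for Scg3. With limma-voom they were 0.20 for Gjb6 and -0.23 for Scg3, and with no filter -0.0063 for Glul. Without the libraries titled with a pair of numbers they were -0.098 for Fgfr3 and -0.15 for Slc7a10. Leaving out each library gave -0.49 to 0.18 for Gja1, -0.33 to 0.43 for Gjb6, -0.65 to 0.07 for S100b, -0.499 to 0.077 for Sox9, -0.54 to 0.17 for Mlc1, -0.75 to 0.18 for Slc4a4, -0.77 to 0.037 for Bcan, -0.35 to 0.0040 for Aldoc, -0.19 to 0.043 for Slc1a2, -0.17 to 0.031 for Slc39a12, -0.081 to 0.54 for Cldn10, -0.51 to 0.67 for Scg3, -0.067 to 0.402 for Slc7a10, -0.075 to 0.21 for Fgfr3, -0.071 to 0.11 for Aldh1a1, -0.024 to 0.16 for Atp1b2 and -0.036 to 0.103 for Glul. The cause of these shifts was not tested. DESeq2 on left-out libraries was added after the data were seen. No paired analysis was possible because the titles share a single number between groups. Ntsr2, Ntm and Cldn10 rest on under 130 counts a library.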
